A study of Rattus norvegicus with 30 samples.

Results

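A set of 9 genes that shorten messenger RNA lifetimes or restrain cell growth were measured in the left ventricle of rats: Zfp36, Zfp36l1 and Zfp36l2, Btg1, Btg2 and Btg3, Tob1 and Tob2, and Csrnp1. They were chosen by name, with earlier results of these data known. Their probes were found through the transcript accession that the array files give for each probe. The 9 genes had 10 probes among 30367 on the array and were 9 of 26785 genes. Zfp36, Zfp36l1, Zfp36l2, the 3 Btg genes and the 2 Tob genes had 1 probe each, and Csrnp1 had 2, of which the brighter stood for the gene. All 9 were among the 18333 genes tested.

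The study asked how high glucose and a diet that lowers insulin sensitivity affect gene expression in the isolated working heart. The 30 hearts, 5 in each of 6 groups, came from male Sprague Dawley rats aged 16 to 18 weeks. The sucrose groups had eaten a high-sucrose diet, for between 8 and 10 weeks, which the labels give as a way to make rats insulin resistant, and the chow groups had eaten rodent chow. In each diet the hearts of 1 group were perfused with glucose at 25 mmol/L, those of another with mannitol at 25 mmol/L as the osmotic control without glucose, and those of the last were not perfused. All rats were anaesthetised with chloral hydrate, and all hearts, the non-perfused ones too, were put into ice-cold Krebs-Henseleit buffer after excision. The non-perfused hearts were then dissected and frozen. The perfused hearts worked outside the body for 60 min at normal oxygen and temperature, in buffer that also held propionate at 2 mmol/L and the ketone bodies beta-hydroxybutyrate at 10 mmol/L and acetoacetate at 1 mmol/L. The perfused groups therefore differ from the non-perfused ones by rewarming, work load, buffer and time outside the body together. A perfused heart also no longer receives blood, nerves or hormones of the rat.

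As background, ZFP36 (tristetraprolin) and its relatives ZFP36L1 and ZFP36L2 are zinc finger proteins that bind AU-rich elements behind the coding part of short-lived messages. They bring in the CCR4-NOT complex, which removes the poly(A) tail, and cytokine messages such as Tnf are their best known targets. The BTG and TOB proteins share a domain that binds the CAF1 deadenylases of the same complex, and several of them slow cell division when they are overexpressed. Zfp36 and Btg2 are also classed as immediate early genes, whose transcription rises quickly after growth factors or stress. CSRNP1 is a nuclear protein found as a gene induced by AXIN1 and is described as a transcription factor.

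RefSeq promoter sequences of the rat build GRCr8 were matched by symbol for 8 of the 9 genes, all but Csrnp1. The 250 bases before the annotated start are printed for Zfp36 and Btg2, whose levels moved together from heart to heart, and for Zfp36l2, which changed least. Capitals mark matches on either strand to 5 motifs: the cAMP response element (TGACGTCA), the AP-1 site (TGANTCA), the EGR site (GCGNGGGCG), and the CArG box and NF-kappaB site, given by name. None of the matches overlap.
Zfp36 (chr1:92799109-92799358, minus strand): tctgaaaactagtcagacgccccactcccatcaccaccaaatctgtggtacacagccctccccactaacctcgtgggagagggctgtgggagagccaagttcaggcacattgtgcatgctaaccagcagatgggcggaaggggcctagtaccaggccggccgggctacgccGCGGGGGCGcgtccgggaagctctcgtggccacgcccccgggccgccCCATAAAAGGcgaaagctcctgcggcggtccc
Btg2 (chr13:48087691-48087940, minus strand): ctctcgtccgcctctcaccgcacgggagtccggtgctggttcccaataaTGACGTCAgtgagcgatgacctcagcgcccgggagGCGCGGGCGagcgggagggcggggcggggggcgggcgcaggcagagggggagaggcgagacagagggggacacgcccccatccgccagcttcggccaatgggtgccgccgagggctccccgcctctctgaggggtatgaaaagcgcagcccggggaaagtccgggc
Zfp36l2 (chr6:16242372-16242621, plus strand): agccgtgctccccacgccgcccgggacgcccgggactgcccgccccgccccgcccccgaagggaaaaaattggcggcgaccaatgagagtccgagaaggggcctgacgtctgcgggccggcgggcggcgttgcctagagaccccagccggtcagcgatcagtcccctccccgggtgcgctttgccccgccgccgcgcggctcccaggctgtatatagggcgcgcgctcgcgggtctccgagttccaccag
The Zfp36 window holds an EGR site 79 to 71 bases and a CArG box 32 to 23 bases before the start. The Btg2 window holds a cAMP response element 201 to 194 bases and an EGR site 166 to 158 bases before the start. The Zfp36l2 window holds none of the 5 motifs, which says only that these letters are not in it. Of the other genes, Btg1 had an EGR site, Zfp36l1 an AP-1 site and Tob1 an NF-kappaB site, and Btg3 and Tob2 had none. The EGR site was thus in 3 of 8 windows and each of the other motifs in 1 of 8. Among 33469 RefSeq promoters of the same length the EGR site was in 4.29%, the cAMP response element in 1.59%, the AP-1 site in 6.34%, the CArG box in 1.5% and the NF-kappaB site in 4.24%. Between 39.2% (Tob1) and 78% (Btg3) of the bases in the 8 windows were G or C, against a median of 51.2% over all promoters. A match describes the sequence and is no evidence that a factor binds there.

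On the 30 arrays 48.8% to 75.4% of probes were well above background, and no spot was saturated. On 4 arrays the negative control spots were noisier than on the rest, with a standard deviation above 8 intensity units: sucrose mannitol replicate 5, sucrose non-perfused replicates 1 and 5 and chow non-perfused replicate 2. The arrays sat on 5 slides, with sucrose mannitol replicate 1 as the sole array of 1 slide. All glucose arrays lay in row 2 of their slides and all non-perfused and chow mannitol arrays in row 1, while sucrose mannitol had 4 arrays in row 2 and 1 in row 1. Row and glucose therefore cannot be told apart in chow, nor row and perfusion in 2 of the 4 perfusion comparisons, whereas the chow mannitol comparison lies within row 1. All 7 ventricular cardiomyocyte markers (such as Myh6, Myl2 and Tnnt2) were above background on every array, and none of them passed the test for perfusion. Atrial markers were also above background in all groups. The number of arrays limits the precision of each value.

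Levels below are log2 of the array signal minus the 75th percentile of the array, so a level of 0 is that percentile and 1 unit is a factor of 2. Differences are between group means on that scale. They were tested with limma, with p-values adjusted by the Benjamini-Hochberg method over all 18333 genes and a threshold of 0.05. Rose and fell refer to that test. Signals of different genes come from different probes, so levels are compared between hearts and never between genes.

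In perfused hearts 8 of the 9 genes rose in each of the 4 comparisons of a perfused group with the non-perfused group of its diet, and none fell. The exception was Zfp36l2. The shares of all tested genes that rose were 5.54% (sucrose glucose), 5.53% (sucrose mannitol), 5.47% (chow glucose) and 4.83% (chow mannitol), and 3.14%, 5.67%, 4.04% and 3.65% fell in the same order. All perfused hearts lay above all non-perfused hearts of their diet for 7 of the 9 genes in sucrose glucose (4.75% of all genes), 8 in sucrose mannitol (4.36%), 8 in chow glucose (5.18%) and 8 in chow mannitol (5.00%). The rise was called in all 4 comparisons for these 8 genes and for 594 of 18333 genes, or 3.24%. Arrays of perfused and non-perfused hearts did not overlap in any of the 4 comparisons for 6 genes (Zfp36, Btg1, Btg2, Tob1, Tob2 and Csrnp1), against 2.30% of all genes. The median difference over the 9 genes was 0.99 with glucose and 0.90 with mannitol in sucrose-fed rats, and 0.98 with glucose and 0.93 with mannitol in chow-fed rats. Over all genes the median lay between -0.05 and -0.01. Both perfused groups of a diet are compared with the same 5 non-perfused hearts, so the 4 comparisons are not independent. The set was chosen with earlier results of these data known, so its counts beside these shares are no independent evidence. All 4 red blood cell markers fell in each of the 4 comparisons, with their levels given at the end. Of 6 macrophage markers 2 rose in sucrose glucose, 3 in sucrose mannitol and 0 in chow glucose and chow mannitol, though no tested gene was called in any interaction of diet with perfusion. The part of these markers in the rises of the 9 genes was not tested. The sizes fall into 3 ranges: Zfp36, Btg2 and Csrnp1 rose between 8.64-fold and 21.7-fold, Zfp36l1, Btg1, Btg3, Tob1 and Tob2 between 1.52-fold and 2.3-fold, and Zfp36l2 differed by 1.14-fold to 1.29-fold without passing the test. For Csrnp1 this is by its brighter probe, while the dimmer one rose 2.94-fold to 3.59-fold, outside these ranges.

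**Figure D1:**
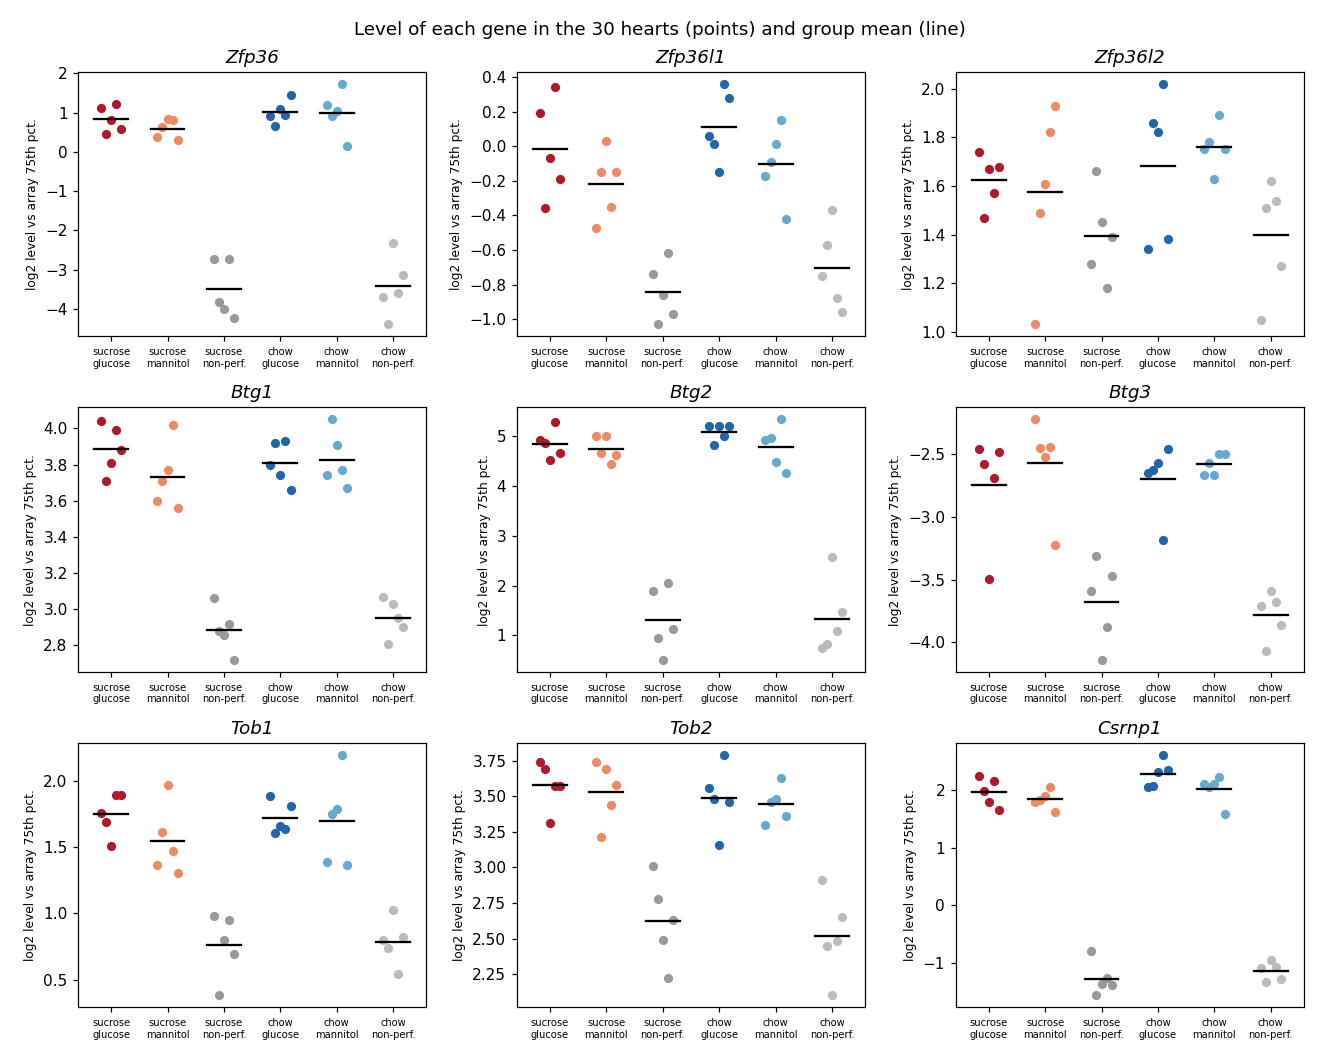
Level of each of the 9 genes in the 30 hearts, as log2 signal relative to the 75th percentile of the array. Each point is 1 heart (5 per group) and each line is the group mean; for Zfp36, Btg2 and Csrnp1 the 20 perfused hearts stand clear of the 10 non-perfused ones, whereas for Zfp36l2 the groups overlap in 3 of the 4 comparisons.

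Of the 3 zinc finger genes, Zfp36 changed most. In sucrose-fed rats Zfp36 was at 1.11, 0.45, 0.80, 1.21 and 0.57 in glucose hearts and at 0.38, 0.63, 0.83, 0.81 and 0.30 in mannitol hearts, against -2.74, -3.84, -4.00, -2.73 and -4.23 in non-perfused hearts. In chow-fed rats it was at 0.91, 0.66, 1.08, 0.94 and 1.44 in glucose hearts and at 1.19, 0.91, 1.03, 1.73 and 0.14 in mannitol hearts, against -3.70, -4.40, -2.32, -3.60 and -3.14 in non-perfused hearts. Every perfused heart lay above every non-perfused heart, with the lowest perfused level at 0.14 and the highest non-perfused level at -2.32. The group means were 0.83 ± 0.33 (sucrose glucose), 0.59 ± 0.24 (sucrose mannitol), 1.00 ± 0.28 (chow glucose) and 1.00 ± 0.57 (chow mannitol), against -3.51 ± 0.72 (sucrose non-perfused) and -3.43 ± 0.77 (chow non-perfused; SD, n = 5 each). Zfp36 thus rose 20.2-fold with glucose and 17.1-fold with mannitol in sucrose-fed rats, and 21.7-fold with glucose and 21.6-fold with mannitol in chow-fed rats (standard error of the log2 difference 0.32, largest adjusted p 4.69e-10). By size the Zfp36 rise ranked 12, 14, 14 and 9 from the top of all tested genes in those comparisons. In chow non-perfused replicate 2, the lowest of all, the probe was not well above background, so the level there is the least certain. With another background correction (normexp) and quantile normalization the rises of Zfp36 were 10.1-, 8.46-, 11- and 10.7-fold in the same order, and all were called.

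Zfp36l1, whose protein also binds AU-rich messages, rose less. Its levels ran from -0.36 to 0.34 in sucrose glucose hearts and from -0.47 to 0.03 in sucrose mannitol hearts, against -1.03 to -0.62 in sucrose non-perfused hearts. In chow-fed rats they ran from -0.15 to 0.36 with glucose and from -0.42 to 0.15 with mannitol, against -0.96 to -0.37 without perfusion. Only the chow mannitol hearts overlapped with their non-perfused group, and there 1 non-perfused heart (-0.37) lay above the lowest perfused heart (-0.42). Zfp36l1 rose 1.77-fold with glucose and 1.54-fold with mannitol in sucrose-fed rats, and 1.76-fold with glucose and 1.52-fold with mannitol in chow-fed rats (standard error 0.14, adjusted p 0.000117, 0.00273, 0.000127 and 0.00459 in that order). These calls depended on the processing. With normexp and quantile normalization the adjusted p was 0.0767 in the sucrose mannitol and 0.157 in the chow mannitol comparison, where the differences were 0.53 and 0.45. In the authors' deposited values the differences of Zfp36l1 were 0.91, 0.69, 0.60 and 0.57, against 0.83, 0.63, 0.81 and 0.60 as reported, and the adjusted p was 0.068, 0.301, 0.396 and 0.631.

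Zfp36l2, the third gene of the family, differed least from group to group. In sucrose-fed rats Zfp36l2 was at 1.74, 1.47, 1.67, 1.57 and 1.68 in glucose hearts and at 1.03, 1.49, 1.61, 1.82 and 1.93 in mannitol hearts, against 1.28, 1.66, 1.45, 1.18 and 1.39 in non-perfused hearts. In chow-fed rats it was at 1.34, 1.86, 1.82, 2.02 and 1.38 in glucose hearts and at 1.75, 1.78, 1.63, 1.89 and 1.75 in mannitol hearts, against 1.05, 1.51, 1.62, 1.54 and 1.27 in non-perfused hearts. The groups overlapped in every comparison but chow mannitol, where the lowest perfused heart (1.63) lay just above the highest non-perfused one (1.62). The differences were 0.24, 0.18, 0.29 and 0.36 (standard error 0.15), with adjusted p of 0.39, 0.492, 0.265 and 0.14. Their 95% intervals ran from -0.06 to 0.53, from -0.11 to 0.48, from -0.01 to 0.59 and from 0.06 to 0.66, so a rise of more than 1.58-fold lies outside all of them. Slide accounted for 67.3% of the spread of Zfp36l2 around the group means, the highest share among the 9 genes. With slide as a fixed block the differences were 0.24, 0.33, 0.29 and 0.30, with adjusted p of 0.0794, 0.0193, 0.0282 and 0.0275, so that 3 of the 4 were called; by that fit 5.93% to 6.91% of all genes rose. Within the 4 slides that held both groups the difference was above 0 in all 4 slides for 3 comparisons and in 3 of 4 for sucrose glucose. The share of probes above background moved with it too: over the 30 arrays, deviations of Zfp36l2 and of that share from their group means correlated at r = -0.47 (rho = -0.48), a description of arrays that share slides. The part of slide and array quality in the Zfp36l2 result was not tested further. Averaged over both diets and buffers, Zfp36l2 was 1.2-fold higher in perfused hearts (log2 difference 0.27, standard error 0.09, adjusted p 0.0295), and by that comparison 9 of 9 genes rose, against 10.0% of all genes. This call was lost without any 1 of 4 non-perfused hearts, namely sucrose replicates 1 and 4 (adjusted p 0.0552 and 0.0651) and chow replicates 1 and 5 (0.0771 and 0.0582). It was also lost without the 4 noisy arrays (0.115) and in the authors' deposited values (difference 0.27, adjusted p 0.0615).

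Of the BTG genes, Btg2, which p53 and growth signals are known to induce, changed most. In sucrose-fed rats Btg2 was at 4.92, 4.86, 4.51, 5.27 and 4.65 in glucose hearts and at 4.99, 4.66, 5.00, 4.43 and 4.62 in mannitol hearts, against 1.89, 0.95, 0.51, 2.05 and 1.13 in non-perfused hearts. In chow-fed rats it was at 5.19, 4.82, 5.19, 5.00 and 5.20 in glucose hearts and at 4.92, 4.95, 4.47, 5.33 and 4.26 in mannitol hearts, against 0.74, 0.82, 2.58, 1.09 and 1.47 in non-perfused hearts. No perfused heart was as low as any non-perfused one: the lowest perfused level was 4.26, and the highest non-perfused level was 2.58 in chow replicate 3. Btg2 rose 11.6-fold with glucose and 10.8-fold with mannitol in sucrose-fed rats, and 13.4-fold with glucose and 10.9-fold with mannitol in chow-fed rats (standard error 0.29, largest adjusted p 1.55e-09). The 95% intervals of these folds ran from 7.68 to 17.4, from 7.17 to 16.3, from 8.87 to 20.1 and from 7.24 to 16.4. The Btg2 rise was number 25, 24, 24 and 24 from the top of all tested genes.

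Btg1, which restrains growth in lymphoid and other cells, rose by a smaller and very even amount. Its levels averaged 3.88 ± 0.13 in sucrose glucose and 3.73 ± 0.18 in sucrose mannitol hearts, against 2.89 ± 0.12 in sucrose non-perfused hearts (SD, n = 5 each). In chow-fed rats the means were 3.81 ± 0.11 with glucose and 3.83 ± 0.15 with mannitol, against 2.95 ± 0.10 without perfusion (SD, n = 5 each). The 20 perfused hearts ran from 3.56 to 4.05 and the 10 non-perfused hearts from 2.72 to 3.07, with no overlap. Btg1 rose 1.99-fold with glucose and 1.79-fold with mannitol in sucrose-fed rats, and 1.81-fold with glucose and 1.83-fold with mannitol in chow-fed rats, with the smallest standard error of the 9 genes (0.09) and adjusted p of at most 1.21e-07.

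Btg3, another antiproliferative member of the family, was measured close to background, with 26 of 30 arrays well above it. In sucrose-fed rats Btg3 was at -2.46, -2.58, -3.49, -2.69 and -2.48 in glucose hearts and at -2.22, -2.45, -2.52, -2.44 and -3.22 in mannitol hearts, against -3.59, -3.31, -4.14, -3.88 and -3.47 in non-perfused hearts. In chow-fed rats it was at -2.65, -2.62, -2.57, -3.18 and -2.46 in glucose hearts and at -2.66, -2.57, -2.66, -2.50 and -2.50 in mannitol hearts, against -3.71, -4.07, -3.59, -3.68 and -3.86 in non-perfused hearts. The 4 arrays below that mark were sucrose mannitol replicate 5, sucrose non-perfused replicate 1, chow glucose replicate 4 and chow non-perfused replicate 2, which were also the 4 arrays with the smallest shares of probes above background (48.8% to 52.3%). The perfused and non-perfused hearts did not overlap in 3 comparisons. In sucrose glucose they did, through replicate 3 (-3.49). Btg3 rose 1.92-fold with glucose and 2.16-fold with mannitol in sucrose-fed rats, and 2.12-fold with glucose and 2.3-fold with mannitol in chow-fed rats (standard error 0.19, adjusted p 0.00111, 0.000152, 0.000173 and 5.06e-05). In the authors' deposited values the differences ran from 0.97 to 1.44, and none passed the test (adjusted p 0.277, 0.268, 0.356 and 0.0665). Across the other settings the smallest differences were 0.5 (sucrose glucose), 0.58 (sucrose mannitol), 0.55 (chow glucose) and 0.73 (chow mannitol), each still called. The reported differences were 0.94, 1.11, 1.08 and 1.2 in that order, so the size of the Btg3 rise depended on the processing. Slide accounted for 51.8% of the spread of Btg3 around its group means. The difference was nevertheless above 0 on each of the 4 slides that held both groups, in all 4 comparisons, from 0.50 to 1.57.

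The TOB genes, whose proteins link deadenylases to poly(A)-binding protein, rose by close to 2-fold. Tob1 averaged 1.75 ± 0.16 in sucrose glucose and 1.55 ± 0.26 in sucrose mannitol hearts, against 0.76 ± 0.24 in sucrose non-perfused hearts (SD, n = 5 each). In chow-fed rats Tob1 averaged 1.72 ± 0.12 with glucose and 1.70 ± 0.34 with mannitol, against 0.79 ± 0.17 without perfusion (SD, n = 5 each). The perfused hearts ran from 1.31 to 2.20 and the non-perfused hearts from 0.38 to 1.03, with no overlap. Tob1 rose 1.98-fold with glucose and 1.72-fold with mannitol in sucrose-fed rats, and 1.91-fold with glucose and 1.88-fold with mannitol in chow-fed rats (standard error 0.14, largest adjusted p 0.000376). Tob2 averaged 3.58 ± 0.17 and 3.53 ± 0.21 in sucrose glucose and sucrose mannitol hearts, against 2.63 ± 0.30 in sucrose non-perfused hearts (SD, n = 5 each). It averaged 3.49 ± 0.23 and 3.44 ± 0.13 in chow glucose and chow mannitol hearts, against 2.52 ± 0.30 in chow non-perfused hearts (SD, n = 5 each). Its lowest perfused level was 3.16 and its highest non-perfused level 3.01. Tob2 rose 1.93-fold with glucose and 1.87-fold with mannitol in sucrose-fed rats, and 1.97-fold with glucose and 1.9-fold with mannitol in chow-fed rats (standard error 0.14, largest adjusted p 6.47e-05).

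Csrnp1, the nuclear factor outside these families, gave the smallest p-values of the set. In sucrose-fed rats Csrnp1 was at 2.24, 1.98, 1.79, 2.15 and 1.65 in glucose hearts and at 1.79, 1.83, 1.89, 2.06 and 1.62 in mannitol hearts, against -0.79, -1.56, -1.37, -1.26 and -1.38 in non-perfused hearts. In chow-fed rats it was at 2.06, 2.07, 2.31, 2.61 and 2.35 in glucose hearts and at 2.11, 2.06, 2.10, 2.22 and 1.59 in mannitol hearts, against -1.09, -1.33, -0.94, -1.07 and -1.28 in non-perfused hearts. Perfused and non-perfused hearts were far apart, with the lowest perfused level at 1.59 and the highest non-perfused level at -0.79. Csrnp1 rose 9.42-fold with glucose and 8.64-fold with mannitol in sucrose-fed rats, and 10.7-fold with glucose and 8.93-fold with mannitol in chow-fed rats (standard error 0.14, adjusted p 1.33e-14, 3.52e-14, 1.59e-15 and 1.22e-14). Its dimmer probe rose too but by less, 3.17-, 2.94-, 3.59- and 2.96-fold in the same order (standard error 0.13, adjusted p of at most 1.82e-09). With the mean of both probes the rises were 5.46-, 5.04-, 6.21- and 5.14-fold. The direction of the Csrnp1 change thus held for both probes, and its size depended on the probe.

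**Figure D2:**
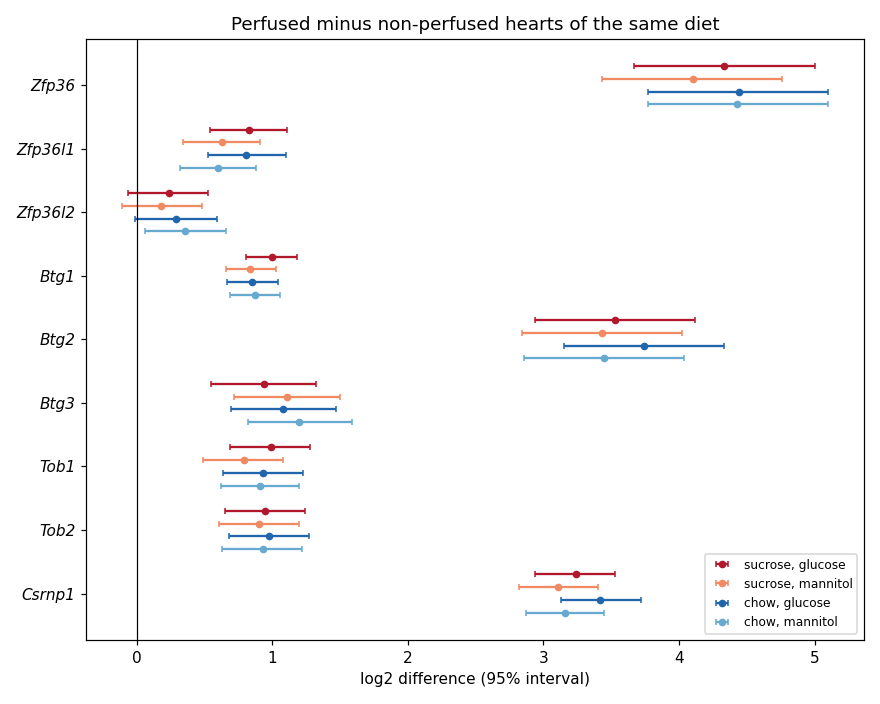
Difference of each gene between perfused and non-perfused hearts of the same diet, in log2 units, with 95% intervals from limma. The 4 points of a gene lie close together, and of all intervals those of Zfp36l2 alone reach 0, in 3 of its 4 comparisons.

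The genes also varied among hearts of 1 group, and not alike. The pooled standard deviation of Zfp36 was 0.38 in perfused and 0.75 in non-perfused hearts, and that of Btg2 was 0.30 in perfused and 0.70 in non-perfused hearts. For Csrnp1 it was 0.22 in perfused and 0.24 in non-perfused hearts, and for the other 6 genes it lay between 0.15 and 0.32 in perfused and between 0.11 and 0.30 in non-perfused hearts. The same non-perfused hearts were high in Zfp36 and Btg2: chow replicate 3 (Zfp36 at -2.32, Btg2 at 2.58) and sucrose replicates 1 and 4 (Zfp36 at -2.74 and -2.73, Btg2 at 1.89 and 2.05). Deviations of Zfp36 and Btg2 from their group means correlated at r = 0.83 (rho = 0.76) over the 30 arrays, at 0.91 over the 10 non-perfused and at 0.67 over the 20 perfused arrays, and at 0.86 after removal of slide. Next came Zfp36 with Csrnp1 (r = 0.68), Zfp36l1 with Tob1 (0.61) and Zfp36 with Tob1 (0.59). Over all 36 pairs the median r was 0.16, the range was -0.29 to 0.83, and 27 pairs were above 0. Zfp36l2 and Btg3, the genes with the most spread by slide, gave the lowest value. These correlations describe arrays that share slides and scaling, and carry no test.

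**Figure D3:**
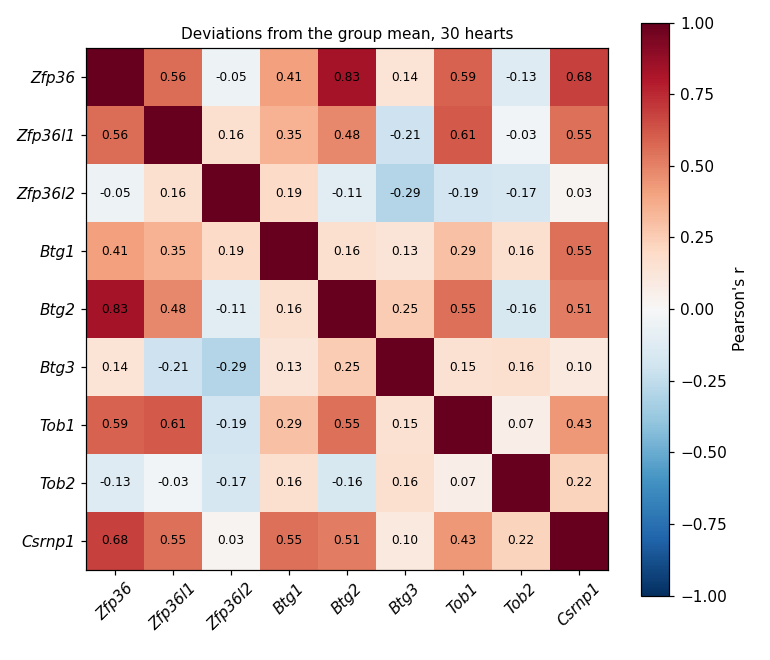
Pearson's r between the 9 genes over 30 hearts, after the mean of each of the 6 groups was subtracted. Zfp36 and Btg2 show the highest value (0.83), while Zfp36l2, Btg3 and Tob2 stay between -0.29 and 0.25 with all other genes.

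Whether glucose changed these genes was asked by comparing glucose with mannitol perfusion in each diet. None of the 9 genes passed the limma test in sucrose-fed or in chow-fed rats, and none had an unadjusted p under 0.05 in either. Over all genes 0.00545% (1 gene) were called in sucrose-fed rats and 0% in chow-fed rats. In sucrose-fed rats the differences ran from -0.17 (Btg3) to 0.24 (Zfp36), and in chow-fed rats from -0.12 (Btg3) to 0.29 (Btg2). Glucose and mannitol hearts overlapped for each of the 9 genes in both diets, whereas 0.796% of all genes showed no overlap in sucrose-fed and 0.731% in chow-fed rats. The intervals show what size remains possible. For Btg1 they were -0.03 to 0.34 in sucrose-fed and -0.21 to 0.17 in chow-fed rats, so changes beyond 1.26-fold lie outside both. For Zfp36 they were much wider, -0.42 to 0.90 and -0.66 to 0.67, and a change of up to 1.87-fold in sucrose-fed rats lies inside them. All intervals rest on a spread pooled over the 6 groups, non-perfused hearts included. For Zfp36 the pooled standard deviation was 0.38 in perfused and 0.75 in non-perfused hearts, so part of that width comes from hearts outside the comparison. Averaged over the diets, Zfp36l1 was 0.21 higher with glucose than with mannitol (95% interval 0.01 to 0.41) and was the only gene of the 9 with an unadjusted p under 0.05 in limma, but its adjusted p was 0.999; 0.00545% of all genes were called. All glucose arrays lay in row 2 of the slides, so in chow-fed rats glucose and row cannot be told apart.

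The effect of the high-sucrose diet was examined in hearts of the same treatment. No gene of the 9 passed the limma test in glucose, mannitol or non-perfused hearts, against 0%, 0.00545% and 0% of all genes. In glucose hearts the differences ran from -0.32 (Csrnp1) to 0.08 (Btg1 and Tob2), in mannitol hearts from -0.41 (Zfp36) to 0.09 (Tob2) and in non-perfused hearts from -0.14 (Zfp36l1) to 0.11 (Tob2). Csrnp1 in glucose hearts was the single difference with an unadjusted p under 0.05: it averaged 1.96 ± 0.24 in sucrose-fed and 2.28 ± 0.22 in chow-fed rats (SD, n = 5 each). That difference of -0.32 had a 95% interval of -0.61 to -0.03 and an adjusted p of 0.999. It was below 0 on all 4 slides that held both groups and was -0.32 by the dimmer probe too, but hearts of the diets overlapped. The slides and the dimmer probe draw on the same hearts, so they are no independent support. Zfp36l1 in mannitol hearts was likewise below 0 on all 4 slides, with an unadjusted p of 0.413 in limma. The diets overlapped for all 9 genes in each treatment, while 0.813% (glucose), 1.81% (mannitol) and 0.502% (non-perfused) of all genes showed no overlap. Averaged over the 3 treatments Csrnp1 differed by -0.21 between sucrose-fed and chow-fed rats (interval -0.38 to -0.04, unadjusted p under 0.05, adjusted p 0.711, with 0.00545% of all genes called).

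Whether the diet altered the response to perfusion was tested with interaction terms: for each buffer, for both averaged, and for glucose against mannitol. None of the 9 genes passed any of these 4 tests in limma, none had an unadjusted p under 0.05, and 0% of all genes were called. The averaged interaction, the response in sucrose-fed minus that in chow-fed rats, was -0.22 for Zfp36 (95% interval -1.03 to 0.59) and -0.11 for Btg2 (-0.84 to 0.61). It was -0.12 for Csrnp1 (-0.47 to 0.24) and 0.06 for Btg1 (-0.17 to 0.28). For Zfp36 a response 0.489 to 1.51 times as large in sucrose-fed as in chow-fed rats lies inside the interval, and for Btg1 one of 0.888 to 1.22 times.

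**Figure D4:**
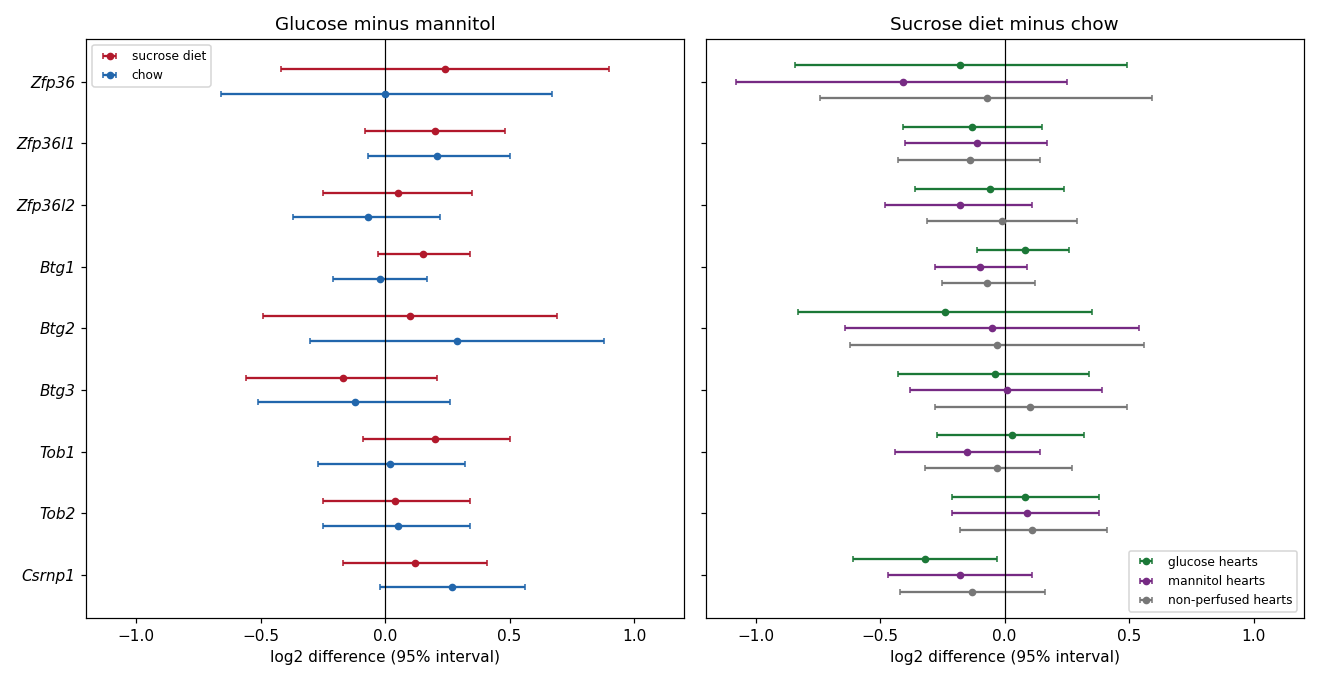
Differences of the 9 genes between glucose and mannitol hearts (left, by diet) and between sucrose-fed and chow-fed rats (right, by treatment), in log2 units with 95% intervals from limma. Of all intervals only that of Csrnp1 in glucose hearts, sucrose against chow (-0.61 to -0.03), leaves out 0.

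For each gene the 3 other named genes with the most similar level over the 30 arrays were taken by Pearson's r. Because perfused and non-perfused arrays enter together, a gene with a like gap between them scores high, and the values are a description. Zfp36 was closest to Nr4a1, Ier2 and Btg2 (r = 0.99 each), and Btg2 to Nr4a1, Atf3 and Zfp36 (0.99 each). Nr4a1 encodes an orphan nuclear receptor, and Ier2 and Atf3 are early response genes. Nr4a1 rose 40.6-fold with glucose and 38.4-fold with mannitol in sucrose-fed rats, and 41.1-fold and 37-fold in chow-fed rats. Csrnp1 was closest to Gadd45b, Klf16 and Ddit3 (0.99 each), the last encoding the stress factor CHOP. Btg1 was closest to Klf16, Csrnp1 and C8h15orf39 (0.97 each). Tob1 was closest to Zfp36, Egr2 and Btg2 (0.93 each), and Tob2 to Ripk3, Sertad1 and C8h15orf39 (0.92 each). Zfp36l1 kept other company: Bcl3, Cebpd and Socs3 (0.92 each), where Socs3 is a feedback inhibitor of cytokine signalling and rose 5.37-, 3.98-, 6.37- and 4.44-fold (sucrose glucose, sucrose mannitol, chow glucose and chow mannitol). Btg3 was closest to Gnat1, Ddx5 and Cln8 (0.9 each). Of the genes closest to Zfp36l2, Or1f26 (0.88) and Cacna1a (0.84) did not pass the test in any perfusion comparison. For the other 8 genes all 3 nearest genes rose in all 4 comparisons.

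The machinery that these proteins work with was followed through lists of genes, by the difference between perfused and non-perfused hearts averaged over diets and buffers. By this comparison 10.0% of all genes rose and 12.3% fell, and the median of all genes was -0.04. Of the CCR4-NOT deadenylase complex 9 genes were measured, of which 1 rose and 3 fell (median -0.05). Cnot3 (-0.38), the ubiquitin ligase Cnot4 (-0.23) and the catalytic subunit Cnot8 (-0.22), a partner of BTG and TOB proteins, fell, and Cnot10 (0.15) rose. Of 3 other deadenylases 2 rose: Noct, a clock-related protein of the deadenylase family, 3.76-fold and Pan3 1.19-fold, while Parn differed by -0.04. Of 5 poly(A)-binding proteins and regulators Pabpn1 rose (0.32) and Paip1 fell (-0.31). Of 10 decapping genes 1 rose and 4 fell (median -0.02), among them Patl1 (0.36), Lsm3 (-0.34), Lsm6 (-0.20) and Lsm2 (-0.22). Of 9 exosome and SKI genes none rose and 4 fell (median -0.20), with Exosc7 at -0.20, Exosc9 at -0.25, Exosc3 at -0.22 and Exosc2 at -0.29. Of 10 kinases and phosphatase subunits that act on ZFP36, none rose and Mapk14, the kinase p38 alpha, fell (-0.18). These changes were all smaller than 1.5-fold except that of Noct.

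Among 13 other RNA-binding proteins of message stability 3 rose and 3 fell (median -0.06). Zc3h12a, which encodes the ribonuclease regnase-1, rose 4.12-fold, and Arid5a, which stabilises Il6 messages, rose 2.74-fold. Hnrnpd (AUF1) rose 1.27-fold and Rc3h2 (roquin-2) fell by 0.33 on the log2 scale. Of 17 messages on the array reported to have AU-rich elements bound by ZFP36, 14 passed the filter on dim probes, and of these 13 rose and none fell (median 2.94). Cxcl2 rose 77.1-fold, Cxcl1 38.3-fold, Myc 9.53-fold and Ier3 4.91-fold. The Cxcl2 probe was well above background in 5 of 10 non-perfused hearts, so its fold is uncertain. The Il6 probe was well above background in 17 of 20 perfused and in 4 of 10 non-perfused hearts. A gene passes that filter if it is bright in any 1 group, so the count leans toward genes high in perfused hearts. The exception was Lif, at 0.01. The list was chosen with earlier results of these data known and many of its genes are themselves early response genes, so its direction is no independent evidence on ZFP36. Of 3 relatives outside the set on the array only Csrnp2 passed the filter, and it rose 1.63-fold.

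Genes of cell division moved both ways. Of 15 cyclin, CDK and proliferation genes 3 rose and 4 fell (median -0.08). Cdk2 rose 1.87-fold and Pcna, the replication clamp, 1.76-fold. The proliferation marker Mki67 fell by 0.52 and the ribonucleotide reductase subunit Rrm2 by 0.62 on the log2 scale. Of 6 CDK inhibitors 2 rose, Cdkn1b (p27) 1.33-fold and Cdkn2d 1.49-fold, and none fell. Cdkn1a (p21), a p53 target as Btg2 is, differed by 0.03 (standard error 0.16, adjusted p 0.926). That average joins opposite signs, none of them called: -0.09 with glucose and -0.25 with mannitol in sucrose-fed rats, and 0.22 and 0.24 in chow-fed rats. Cdkn1a was singled out after its value was seen, and the part of p53 in the Btg2 rise was not tested.

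**Figure D5:**
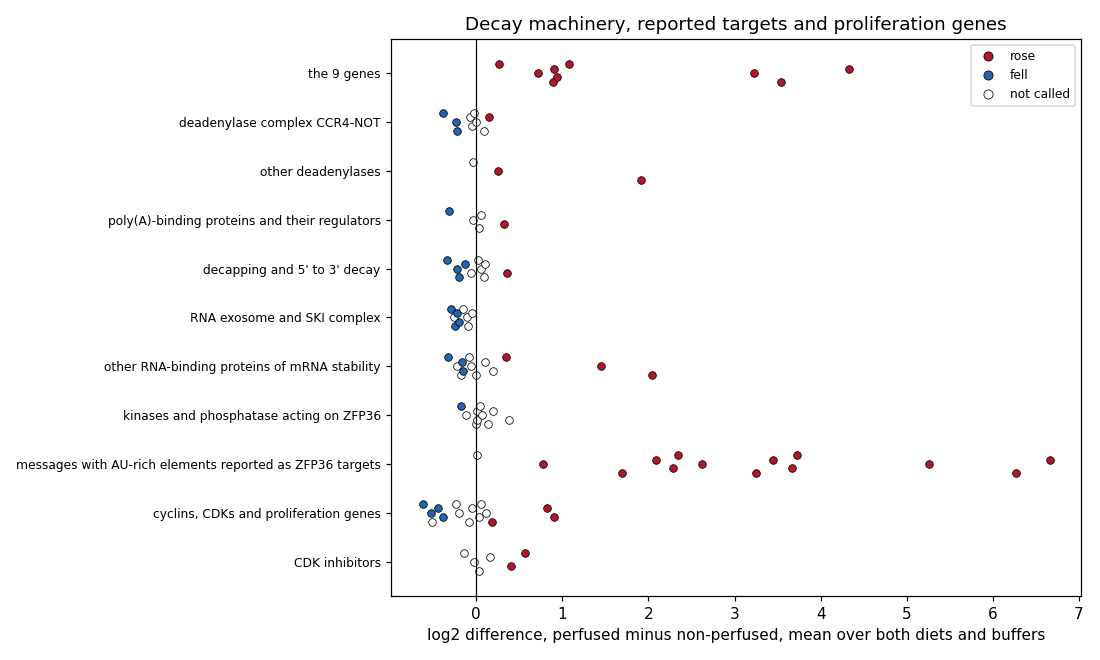
Difference between perfused and non-perfused hearts, averaged over both diets and buffers, in log2 units, for the 9 genes and 10 lists of related genes. Each point is 1 gene, red where it rose, blue where it fell and white where it was not called. Of the reported ZFP36 target messages that passed the filter on dim probes 13 of 14 rose. In the CCR4-NOT, deadenylase, poly(A)-binding, decapping and exosome lists, called differences were small except for Noct, and more genes fell than rose. Of all genes 10.0% rose and 12.3% fell.

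Markers of other cells also differed between perfused and non-perfused hearts, averaged over diets and buffers. Of all genes 10.0% rose and 12.3% fell by this comparison. All 4 red blood cell markers fell in perfused hearts: their summed level, in multiples of the 75th percentile of the array, was 5.95 to 10.5 in sucrose glucose and 5.04 to 19.7 in sucrose mannitol hearts, against 525 to 853 in sucrose non-perfused hearts. It was 6.08 to 23.3 in chow glucose and 6.82 to 92.3 in chow mannitol hearts, against 529 to 797 in chow non-perfused hearts. Of 4 neutrophil markers S100a9 and S100a8 fell, and the lymphocyte marker Cd79b fell. Of 6 macrophage markers 5 rose and none fell by the averaged comparison, while none passed the test in either comparison of chow-fed rats. Mrc1 differed by 1.18 with glucose and 1.55 with mannitol in sucrose-fed rats (adjusted p 0.0121 and 0.000858 in limma), and by 0.34 with each buffer in chow-fed rats (0.618 and 0.625). No tested gene was called in any interaction of diet with perfusion, so a different response of these markers in the 2 diets was not shown. The summed levels of the macrophage markers were 4.6 to 5.84 and 4.8 to 6.38 in sucrose glucose and sucrose mannitol hearts, against 3.42 to 5.24 in sucrose non-perfused hearts. In chow-fed rats they were 4.34 to 5.45 and 4.2 to 5.3 in glucose and mannitol hearts, against 3.72 to 5.49 in non-perfused hearts. Of 6 fibroblast markers 3 rose, of 5 endothelial markers Cldn5 rose 3.47-fold, and of 4 smooth muscle markers only Cnn1 rose, 2-fold. The Cnn1 probe was well above background in 16 of 20 perfused and 5 of 10 non-perfused hearts, so its fold is uncertain. In bulk tissue, more cells of a type and more RNA per cell cannot be told apart.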

How the data were processed

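Total RNA of 30 left ventricles was labelled with Cy3 and hybridised to 1-colour Agilent rat arrays, 1 per heart. The authors deposited the output of Agilent Feature Extraction (11.0.1.1 per the file headers, 10.3 per the submitters' processing notes). Per the file headers, its processed signal is an intensity after background subtraction and spatial detrending on each array, and no scaling between arrays was done. Log2 values were deposited as well. These followed the log2 background-subtracted signal of each array (smallest correlation 0.9984), with array medians of 7.37 to 7.41 over the genes' probes; which scaling was applied between arrays is not given in the sources used here.

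Control spots (62976 spots, 58717 without them) and spots marked as outliers were left out, spots of 1 probe were averaged (264 probe and array pairs had only marked spots and kept them), and the 75th percentile of the array was subtracted from the log2 processed signal. Probes were named by accession through RefSeq: of 30367 probes 18355 (60.4%) gained a symbol, and 12012 did not. A gene was represented by its brightest probe. The 18333 genes tested had a signal well above background on 4 or more arrays of some group.

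Differences between group means came from limma 3.58.1, run in R 4.3.3 (data.table, version 1.17.8; jsonlite 2.0.0) as a single model of 6 groups, with 16 comparisons and Benjamini-Hochberg adjustment within each. The settings were tested on simulated data with known changes. The labels call the samples biological replicates. No 2 arrays held identical values.

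The 9 genes and the gene lists were chosen with earlier results of these data known, so they are no independent support for each other. Named were all 9 genes, up to 4 called genes per list by smallest adjusted p of the averaged perfusion comparison (and all genes of lists of 4 or fewer), and the 3 most similar genes per member; some genes under this rule are not reported here. The alternatives were other background corrections, normalizations, filters and probe choices, the authors' values, a block for the slide or the replicate number, fits limited to the groups compared, other variance options, array weights, and left-out arrays. Leaving out the noisy arrays together with the array alone on its slide, and the dimmer Csrnp1 probe, were chosen after seeing the data. Promoter sequences are those of RefSeq, build GRCr8.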

Additional observations from a re-analysis of the deposited data

Results flagged for a closer look

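In 3 of 54 groups (9 genes, 6 groups of 5 hearts) 1 heart stood apart from the rest of its group, by a gap to its neighbour of more than 0.71 of the range of the group. Chance gives about 1 such group in 20. Btg3 in sucrose glucose replicate 3 was at -3.49, with the nearest heart at -2.69 and a gap of 0.78 of the range. Btg3 in chow glucose replicate 4 was at -3.18, with the nearest heart at -2.65 and a gap of 0.74. Both arrays lay on slide 5 and had 59.4% and 52.3% of probes above background. Csrnp1 in chow mannitol replicate 5 was at 1.59, with the nearest heart at 2.06 and a gap of 0.74. No interaction of diet with perfusion or glucose was called for any of the 9 genes.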

How the results depend on the processing

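Every setting was compared with the reported one, 46 settings in all. No called difference of the 9 genes changed direction under any of them. The count of the 9 genes called kept within 1.5 times the reported count in every comparison: for perfusion it was 6 with the authors' deposited values and 9 (8 for sucrose glucose) with slide as a fixed block, against 8 as reported. With a filter on all 30 arrays Zfp36 and Btg3 were not tested, and 6 of 7 genes rose in each perfusion comparison. Single calls changed for Zfp36l1, Btg3 and Zfp36l2 alone, as given with their values, and the cause was not tested. With slide as a random block (correlation 0.211) the call count did not change, and Zfp36l2 had adjusted p of 0.218, 0.248, 0.118 and 0.087 (sucrose glucose, sucrose mannitol, chow glucose and chow mannitol). Replicate numbers do not pair the samples: the mean correlation of deviations was -0.0366 between arrays of the same number, 0.00974 between those of different numbers and 0.204 between arrays of 1 slide. With the replicate number as a block, 8 of 9 genes rose in each perfusion comparison and 0 were called for glucose, diet or interactions, so this block changed no call; Zfp36l2 had an averaged difference of 0.27 (adjusted p 0.023). Without the array alone on its slide the Zfp36l2 difference in sucrose mannitol hearts was 0.32 (adjusted p 0.143), against 0.18 with it. Without the noisy arrays and that array together, its averaged difference was 0.28 (adjusted p 0.0401). Under the authors' scaling the median of all genes shifted by more than 0.1 from the reported one in the diet comparison of non-perfused hearts (-0.12, against -0.01), in chow glucose against chow mannitol (-0.15, against -0.02) and in 4 further comparisons. A fit limited to the compared groups was not run where all 6 groups enter, since it is the same fit.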
